A study of Mus musculus with 12 samples.

Results

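Integrins are the adhesion receptors by which blood precursors hold on to marrow stroma, matrix and each other. The 10 integrin genes Itgal, Itgam, Itga4, Itga5, Itga6, Itgav, Itgb1, Itgb2, Itgb3 and Itgb7 were followed through 6 sorted marrow populations. They were chosen by name, and each of their 18 probes on the array was used, out of 39429 probes under 31541 gene names. All 10 genes passed the filter on dim probes, as did 18556 gene names in all. In these data the 4 beta chains were brightest in pre-pro-B cells and dimmer in pro-B cells. The alpha chains Itga4, Itga5 and Itga6 went the other way between these stages. For Itga4 the outcome depended in part on the probe read and on how the arrays were scaled.

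Each integrin is a pair of an alpha and a beta chain, and the pair decides which ligand is bound. Itgal (CD11a) and Itgam (CD11b) both pair with Itgb2, giving LFA-1, which binds ICAMs, and Mac-1, which binds complement fragments and fibrinogen on myeloid cells. Itga4 pairs with Itgb1 as VLA-4, the receptor for VCAM-1 and fibronectin that holds B cell precursors on stroma, or with Itgb7 as LPAM-1, the receptor for MAdCAM-1 of gut vessels. Itga5 and Itga6 pair with Itgb1 to bind fibronectin and laminin, and Itgav pairs with Itgb3 and other beta chains to bind vitronectin and related matrix proteins. Integrins stay inactive until talin and kindlin, recruited downstream of the small GTPase Rap1, bind the beta tail.

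All cells came from the marrow of female C57BL/6 mice, 16 weeks old, that carry human CD4 (hCD4) as a reporter driven by enhancer and promoter sequence of Cebpa (Cebpa-Enh/prom-hCD4), so every group shares that transgene. The groups are hCD4+ granulocyte-monocyte progenitors (GMP), hCD4- and hCD4+ pre-pro-B cells, hCD4- and hCD4+ pro-B cells, and pre-B cells, for which the labels leave hCD4 open. Each group has 2 arrays of amplified RNA. The series title speaks of 2 mice but does not tie replicate numbers to animals, so a p-value here reflects only how far these samples spread, which may be technical, and with so few arrays precision is limited. The sorting markers are not given in the sources used here. The comparisons address how integrin transcripts differ between marrow stages and between cells with and without Cebpa reporter activity.

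The 12 arrays filled 3 slides. GMP shared a slide with hCD4- pre-pro-B cells, hCD4- pro-B cells with hCD4+ pre-pro-B cells, and pre-B cells with hCD4+ pro-B cells. In comparisons other than these 3, slide and group cannot be told apart. Each array had 50.6% to 56.7% of its probes well above background, and replicates correlated at 0.982 to 0.992. The labels were set against defining genes. Pax5 and Ebf1, transcription factors that define committed B cells, were not well above background on any pre-pro-B or GMP array and were above it on all 6 pro-B and pre-B arrays. Vpreb1, part of the surrogate light chain, lay at 7.63 to 8.16 in pro-B and 6.32 to 6.43 in pre-B cells, and the granule enzyme gene Mpo at 8.31 and 8.80 in GMP. Mpo also lay at 6.65 and 6.56 in hCD4+ pro-B cells, against -3.39 and -0.53 in hCD4- pro-B cells. Cebpa itself lay at -0.53 and -1.41 in hCD4- and -0.34 and -0.63 in hCD4+ pre-pro-B cells, and these arrays overlapped. In pro-B cells it lay at -1.44 and -1.94 with hCD4 and was not well above background on either array without hCD4. Of 7 plasmacytoid dendritic cell markers, 7 were well above background in both pre-pro-B groups and in hCD4+ pro-B cells, 6 in hCD4- pro-B and in pre-B cells and 5 in GMP. Their summed signal in the pre-pro-B groups was 513 to 744 (in units of the 75th percentile of the array) against 84.5 to 142 in the other groups. Bst2, 1 of those markers, lay at 6.83 to 7.62 in pre-pro-B cells and Ccr9 at 4.94 to 5.63. Siglech of the same list was bright in all groups and higher in pre-B cells, at 6.85 and 7.01, than in hCD4+ pre-pro-B cells, at 6.76 and 6.72.

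Levels below are log2 signals relative to the 75th percentile of the same array, so 0 is the brightness of that percentile and a step of 1 is a doubling. In bulk samples fewer cells of a type and less RNA per cell cannot be told apart. Probes differ in brightness for reasons of their own, so levels are compared only within a probe. "Rose" and "fell" are used where limma's Benjamini-Hochberg adjusted p was under 0.05 over all 18556 genes, and errors of changes are standard errors (SE).

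The probes are 60-base oligonucleotides, and 6 of the 10 genes have several. For Itgam and Itga4 the outcome depends on which stretch of the transcript is read. The Itgam probes and the Itga4 probe at base 2292 are shown for that reason, without the brighter Itga4 probe at base 9754. Those of Itgal and Itgb1 are shown as probes whose direction in the pre-pro-B to pro-B step was shared with another probe of the gene, and that of Itgb7 for the gene with the widest spread. They are printed 5′ to 3′ as the scanner files give them, with mm9 positions from the array annotation.
Itgam, base 270 of the transcript, chr7:135212140-135212199: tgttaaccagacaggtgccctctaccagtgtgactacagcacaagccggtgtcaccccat
Itgam, base 3410, chr7:135260275-135260334: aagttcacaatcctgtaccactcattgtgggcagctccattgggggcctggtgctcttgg
Itgam, base 4431, the leading 30 bases of chr7:135261755-135261814, repeat in capitals: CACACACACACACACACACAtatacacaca
Itga4, base 2292, chr2:79153985-79155115: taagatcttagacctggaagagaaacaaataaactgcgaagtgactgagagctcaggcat
Itgal, base 3543, chr7:134477064-134477123: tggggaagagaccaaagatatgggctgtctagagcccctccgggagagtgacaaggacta
Itgb1, base 1840, chr8:131246349-131246408: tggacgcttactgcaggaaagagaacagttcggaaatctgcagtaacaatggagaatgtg
Itgb1, base 2631, chr8:131250081-131255976: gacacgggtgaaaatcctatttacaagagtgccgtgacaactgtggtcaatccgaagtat
Itgb7, base 2590, the leading 30 bases of chr15:102046450-102046509: atttttcagagtgaccttcagagggcagca
The Itga4 probe at base 2292 covers 1131 bases of genome and the Itgb1 probe at base 2631 covers 5896, so both cross an exon junction, while the other 6 are contiguous in the genome. The capitals mark 10 CA units in the Itgam probe at base 4431, which is the brightest Itgam probe and so represents the gene in the gene-level tests.

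Itgb7, the beta chain of the gut-homing receptor, had the widest spread between groups of all 10 genes, 7.90 from the highest to the lowest group mean. It lay at 5.55 and 5.66 in hCD4- pre-pro-B cells and at 5.47 and 5.67 in hCD4+ pre-pro-B cells. The pair overlapped and stood above all other groups. In pro-B cells it lay at -1.03 and -1.93 without hCD4 and at 2.52 and 2.27 with hCD4, and the arrays of these groups did not overlap. GMP lay at 1.63 and 1.87, between the pro-B groups, and pre-B cells at -1.76 and -2.81, overlapping the hCD4- pro-B arrays. It was well above background on all 12 arrays.

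Itgb3, the beta chain of the vitronectin receptor and of the platelet fibrinogen receptor, was also highest in the pre-pro-B groups at its brighter probe (base 5665), with another order below them. Its levels were 3.54 and 3.69 in hCD4- and 3.45 and 3.54 in hCD4+ pre-pro-B cells, whose arrays overlapped. They were 1.00 and 1.03 in pre-B cells, 0.66 and 0.49 in GMP, 0.07 and -0.45 in hCD4+ pro-B and -1.28 and -1.51 in hCD4- pro-B cells. No arrays of these last 4 groups overlapped, and pre-B cells stood above both pro-B groups.

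Itgb2, the leukocyte beta chain shared by LFA-1 and Mac-1, was lowest in GMP. It lay at 2.72 and 2.21 in hCD4- pre-pro-B, 2.18 and 2.06 in hCD4+ pre-pro-B, 0.26 and 0.27 in pre-B, 0.22 and 0.07 in hCD4+ pro-B, -0.05 and -0.27 in hCD4- pro-B and -0.90 and -0.54 in GMP. The means of the pre-pro-B groups stood at least 1.86 above those of the other groups, and the 3 groups of pro-B and pre-B cells lay within 0.43 of each other. Itgb1, the beta chain of VLA-4 and of the fibronectin and laminin receptors, changed least among the beta chains, with a spread of group means of 2.32. Its levels ran from 1.22 and 1.33 in hCD4- pre-pro-B through 0.82 and 0.91 in hCD4+ pre-pro-B and 0.69 and 0.81 in GMP. They were 0.01 and 0.18 in hCD4+ pro-B, -0.17 and -0.18 in hCD4- pro-B and -1.18 and -0.91 in pre-B cells. No neighbouring groups in that order overlapped.

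**Figure D1:**
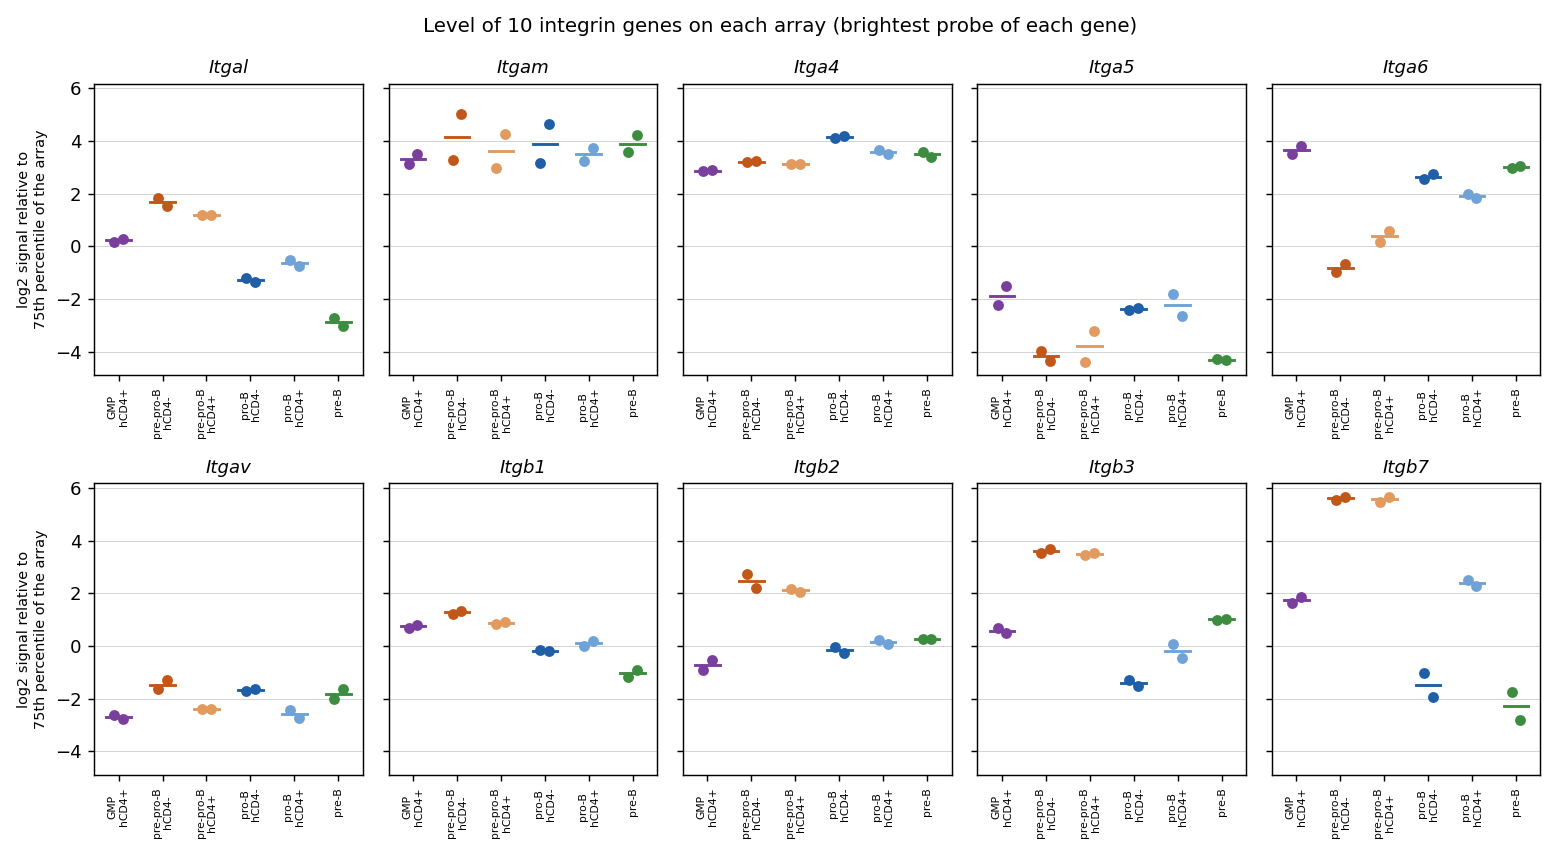
Level of each integrin gene at its brightest probe (log2 signal relative to the 75th percentile of the array, y axis) in the 6 groups (x axis); points are the 2 arrays of a group and bars their mean, and heights are not comparable between panels. Itgb7, Itgb3 and Itgb2 stand highest in both pre-pro-B groups, Itga6 is lowest there, and the Itgam points lie far apart in both pre-pro-B groups and in pro-B cells without hCD4.

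Among the alpha chains Itgal, the LFA-1 chain, went with the beta chains. It lay at 1.81 and 1.54 in hCD4- pre-pro-B, 1.18 and 1.19 in hCD4+ pre-pro-B, 0.16 and 0.29 in GMP, -0.54 and -0.75 in hCD4+ pro-B, -1.22 and -1.35 in hCD4- pro-B and -2.72 and -3.04 in pre-B cells. Every step in that order was free of overlap. Itga6, the laminin receptor chain, ran the other way. It lay at 3.50 and 3.79 in GMP, 2.97 and 3.05 in pre-B, 2.54 and 2.75 in hCD4- pro-B, 2.00 and 1.82 in hCD4+ pro-B, 0.16 and 0.59 in hCD4+ pre-pro-B and -0.96 and -0.68 in hCD4- pre-pro-B cells. Over the 12 arrays the levels of Itga6 and Itgb2 had a Pearson correlation of -0.95, given as a description of arrays that share 6 groups.

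Itga4, the VLA-4 and LPAM-1 chain, was bright in all groups at its probe at base 9754 and spread over 1.28. Its order was hCD4- pro-B (4.10 and 4.20), hCD4+ pro-B (3.66 and 3.50), pre-B (3.58 and 3.40), hCD4- pre-pro-B (3.18 and 3.23), hCD4+ pre-pro-B (3.13 and 3.13) and GMP (2.85 and 2.89). Of these neighbours only the hCD4+ pro-B and pre-B arrays overlapped. Itga5, the fibronectin receptor chain, was dim. It lay at -2.24 and -1.53 in GMP, -1.81 and -2.64 in hCD4+ pro-B and -2.42 and -2.35 in hCD4- pro-B cells. The hCD4+ pro-B arrays overlapped those of GMP and of hCD4- pro-B cells, while the GMP arrays lay above the hCD4- pro-B arrays. Itga5 lay at -4.38 and -3.23 in hCD4+ pre-pro-B, -3.98 and -4.36 in hCD4- pre-pro-B and -4.27 and -4.34 in pre-B cells. In each of the last 2 groups 1 array was not well above background. Itgav, the vitronectin receptor chain, spread over 1.24 at its probe at base 6113, from -1.64 and -1.30 in hCD4- pre-pro-B cells to -2.64 and -2.79 in GMP.

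By group mean at the brightest probe 7 of the genes were highest in hCD4- pre-pro-B cells (Itgal, Itgam, Itgav and the 4 beta chains). Of the others 2 were highest in GMP (Itga5 and Itga6) and 1 in hCD4- pro-B cells (Itga4). The lowest group was pre-B for 4 of the genes and GMP for 4 others. The share of all genes highest in hCD4- pre-pro-B cells was not computed. The arrays of that group were the dimmest, with 75th percentiles of 358 and 246 against 435 to 946 on the others. Its median replicate SD was also the largest, 0.22 against 0.10 to 0.15. For Itgb7 and Itgb3 the arrays of both pre-pro-B groups overlapped. Over the alternative settings hCD4+ minus hCD4- pre-pro-B kept its sign for Itgal, Itgav, Itgb1 and Itgb2, but not for Itgb7, Itgb3 and Itgam. For Itgam the arrays of all groups next to each other in rank overlapped. Its probe at base 3410 was highest in pre-B cells and that at base 270 in GMP. The Itgav probe at base 3885 and the Itga4 probe at base 2292 were highest in pre-B cells, at means of -2.21 and -0.91.

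From pre-pro-B to pro-B cells without hCD4, 5 of the 10 genes fell and 3 rose, where 59.7% of all genes tested changed. All 4 beta chains fell, where 26.9% of all genes did. Itgb7 fell by 7.09 (SE 0.37, adjusted p = 1.16e-06), a level 136-fold lower, and Itgb3 fell by 5.01 (SE 0.18, adjusted p = 2.02e-07). Itgb2 changed by -2.62 (SE 0.19) and Itgb1 by -1.45 (SE 0.13), with adjusted p of 8.61e-06 and 2.44e-05. Of the alpha chains Itgal fell by 2.96 (SE 0.15, adjusted p = 1.17e-06), while Itga6 rose by 3.46 (SE 0.19, adjusted p = 1.42e-06), Itga5 by 1.78 (SE 0.42, adjusted p = 0.00616) and Itga4 by 0.94 (SE 0.11, adjusted p = 0.000146). Itgav and Itgam differed by -0.20 (SE 0.18) and -0.26 (SE 0.69) and did not pass the test. The arrays of the groups did not overlap for 9 of the 10, where they did not for 78.5% of all genes. The median change was -0.86 over the 10 genes and 0.02 over all genes.

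With hCD4 the same 8 genes passed in the same directions, where 54.2% of all genes changed, although the arrays are other ones. The falls were -3.69 for Itgb3 (SE 0.18), -3.17 for Itgb7 (SE 0.37), -1.98 for Itgb2 (SE 0.19), -1.84 for Itgal (SE 0.15) and -0.77 for Itgb1 (SE 0.13). Itga5 rose by 1.58 (SE 0.42), Itga6 by 1.54 (SE 0.19) and Itga4 by 0.46 (SE 0.11), with adjusted p between 2.61e-06 and 0.0127 over the 8. Again 9 of 10 were free of overlap, where 81.7% of all genes were, and the medians were -0.48 over the 10 genes and 0.25 over all. The rise of Itga5 was lost without hCD4+ pre-pro-B replicate 1 (1.00, adjusted p = 0.0792) or hCD4+ pro-B replicate 1 (1.16, adjusted p = 0.0876), and that of Itga4 without hCD4+ pro-B replicate 1 (0.37, adjusted p = 0.0571) and under array-median scaling (0.12, adjusted p = 0.49).

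The step can also be read within a slide, between hCD4- pro-B and hCD4+ pre-pro-B cells, which differ in hCD4 as well. There 5 genes fell and 4 rose, where 47.8% of all genes changed (18.6% fell and 29.2% rose). The falls were -7.05 for Itgb7 (SE 0.37), -4.90 for Itgb3 (SE 0.18), -2.47 for Itgal (SE 0.15), -2.28 for Itgb2 (SE 0.19) and -1.04 for Itgb1 (SE 0.13). Itga6 rose by 2.27 (SE 0.19), Itga5 by 1.42 (SE 0.42), Itga4 by 1.02 (SE 0.11) and Itgav by 0.72 (SE 0.18). For 9 of 10 the arrays did not overlap, where they did not for 77.8% of all genes. This comparison shares arrays with both others. The Itga5 call there was lost without hCD4+ pre-pro-B replicate 1 (0.84, adjusted p = 0.142), hCD4- pro-B replicate 1 (1.45, adjusted p = 0.0746) or hCD4- pro-B replicate 2 (1.38, adjusted p = 0.0879), and the Itgav call without hCD4+ pre-pro-B replicate 2 (0.70, adjusted p = 0.0546) or hCD4- pro-B replicate 2 (0.69, adjusted p = 0.0606).

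**Figure D2:**
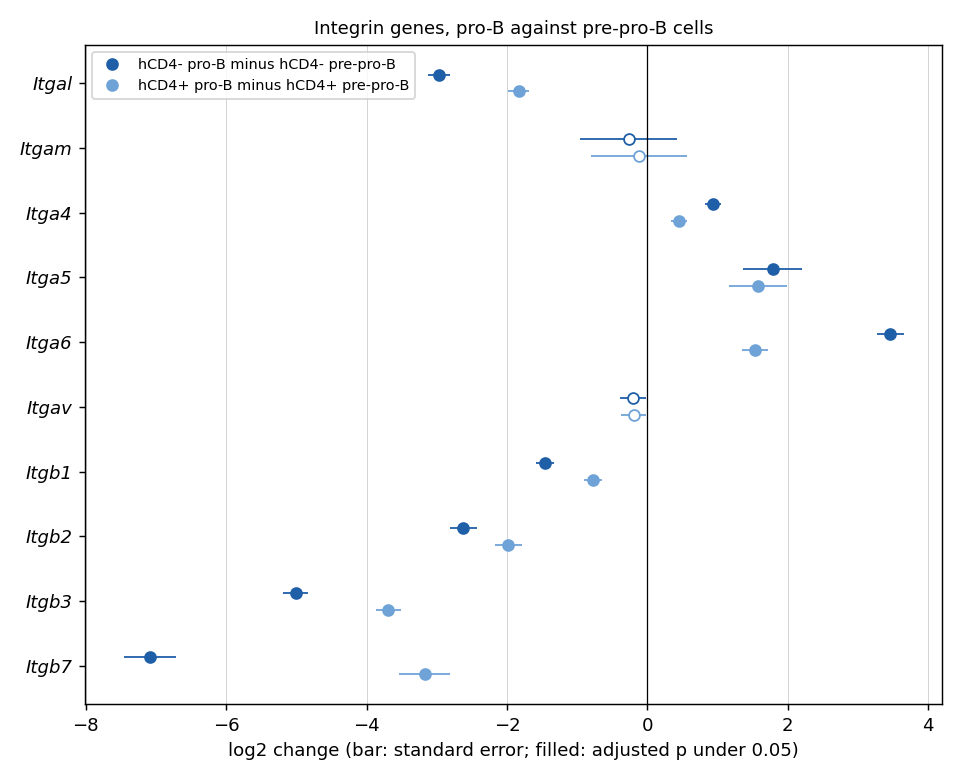
Change of each integrin gene from pre-pro-B to pro-B cells (x axis, log2 change) without hCD4 and with hCD4; bars are standard errors and filled points passed an adjusted p of 0.05. Points of Itgal and the 4 beta chains lie left of 0 and those of Itga4, Itga5 and Itga6 right of 0 in both, with Itgb7 at -7.09 and -3.17.

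Within pre-pro-B cells the hCD4+ and hCD4- groups differed in 2 of the 10 genes, where 17% of all genes changed. Itga6 rose with hCD4 by 1.20 (SE 0.19, adjusted p = 0.00457), with all 4 arrays apart, and Itgav fell by 0.92 (SE 0.18, adjusted p = 0.0132). The beta chains differed by -0.04 (Itgb7, SE 0.37), -0.12 (Itgb3, SE 0.18), -0.34 (Itgb2, SE 0.19) and -0.41 (Itgb1, SE 0.13), and none passed. Itgal differed by -0.49 (SE 0.15, adjusted p = 0.0651). The arrays did not overlap for 6 of 10, where they did not for 58.3% of all genes. The fall of Itgav was lost on leaving out the second hCD4- array (-0.75, adjusted p = 0.0717) or an hCD4+ array (-0.94 without replicate 1 and -0.91 without replicate 2, adjusted p = 0.0566 and 0.0776). In a fit of these 4 arrays alone Itga6 had an adjusted p of 0.0918 and Itgav of 0.099.

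Within pro-B cells 6 of the 10 genes differed with hCD4, 3 higher and 3 lower, where 20.5% of all genes changed. Itgb7 was 14.7-fold higher in hCD4+ pro-B cells, a rise of 3.88 (SE 0.37, adjusted p = 0.000486), and Itgb3 rose by 1.21 (SE 0.18, adjusted p = 0.00333). Itgal rose by 0.64 (SE 0.15, adjusted p = 0.0236). The falls were -0.91 for Itgav (SE 0.18, adjusted p = 0.0116), -0.73 for Itga6 (SE 0.19, adjusted p = 0.0292) and -0.57 for Itga4 (SE 0.11, adjusted p = 0.0107). The other Itga4 probe, at base 2292, gave -0.02 (SE 0.21, adjusted p = 0.955). Itgb1 and Itgb2 differed by 0.27 (SE 0.13) and 0.30 (SE 0.19) and did not pass. The arrays did not overlap for 8 of 10, where they did not for 69.6% of all genes.

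The calls for Itgb7 and Itgb3 held without each single array. Those for Itgal and Itga6 were lost without any of the 4, with Itgal at 0.71 and Itga6 at -0.84 without hCD4- replicate 1, 0.57 and -0.62 without hCD4- replicate 2, 0.53 and -0.82 without hCD4+ replicate 1, and 0.75 and -0.64 without hCD4+ replicate 2 (adjusted p of 0.0507 to 0.165). Itgav lost its call without either hCD4- array (-0.94 without the first and -0.88 without the second) or without hCD4+ replicate 2 (-0.75), and Itga4 without hCD4- replicate 2 (-0.52) or hCD4+ replicate 2 (-0.49). Leaving out single arrays also took the count of all genes called from 3802 to between 1462 and 1974.

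The hCD4 contrast itself differed between the stages in 5 of the 10 genes, where 23% of all genes did. Pro-B minus pre-pro-B, the contrast was larger by 3.92 for Itgb7 (SE 0.52, adjusted p = 0.00222), 1.32 for Itgb3 (SE 0.25, adjusted p = 0.00967), 1.13 for Itgal (SE 0.22, adjusted p = 0.0101) and 0.68 for Itgb1 (SE 0.18, adjusted p = 0.0309). It was -1.93 for Itga6 (SE 0.26, adjusted p = 0.00243), which was higher with hCD4 in pre-pro-B and lower with hCD4 in pro-B cells. For Itgav the contrasts were -0.92 and -0.91 and their difference 0.01 (SE 0.26). For Itgb7, Itgb3, Itgal, Itgb1 and Itga6 the mean of hCD4+ pro-B cells lay between that of hCD4- pro-B cells and those of both pre-pro-B groups. The same held for Itgb2 and, at its brighter probe, for Itga4, whose differences between the contrasts did not pass. The share of all genes with such an order was not computed. The Itgb1 difference was lost without any of 7 of the 8 arrays compared, all but hCD4- pre-pro-B replicate 1 (0.60 to 0.76, adjusted p of 0.051 to 0.0934). The difference for Itgb2, 0.64 (SE 0.27, adjusted p = 0.123), passed without hCD4- pre-pro-B replicate 2 (0.90, adjusted p = 0.0424). The differences for Itgb7, Itgb3, Itgal and Itga6 passed without each single array. Under array-median scaling the difference for Itgb1 was 0.16 (adjusted p = 0.533) and that for Itgal 0.61 (adjusted p = 0.126).

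**Figure D3:**
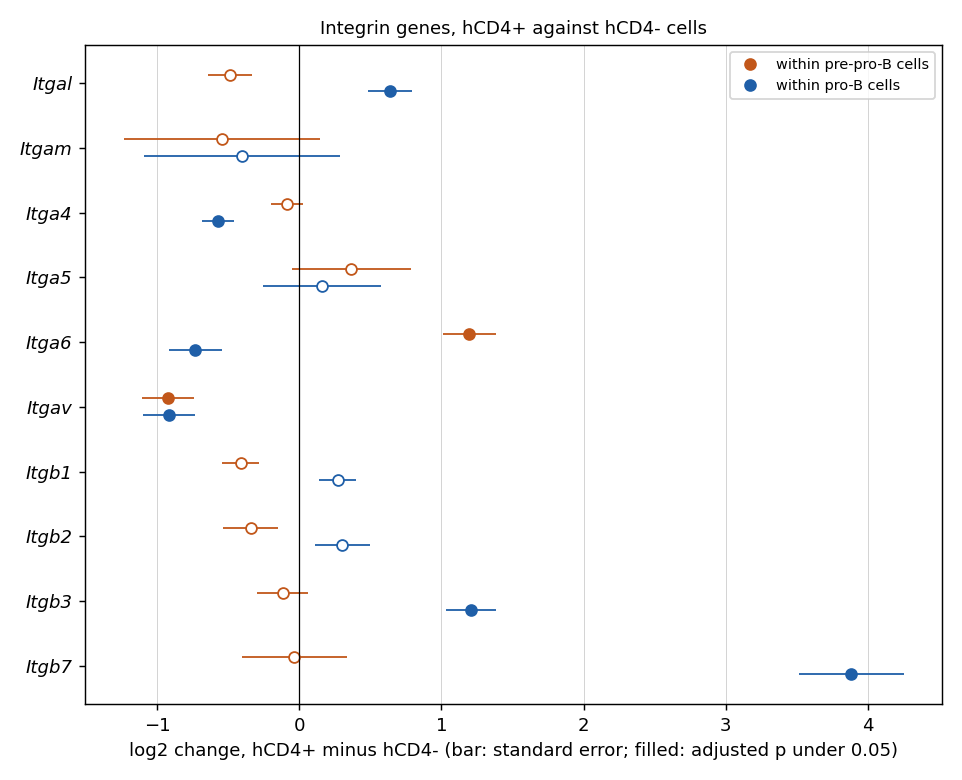
Change of each integrin gene with the hCD4 reporter (x axis, log2 change, hCD4+ minus hCD4-) within pre-pro-B and within pro-B cells; bars are standard errors and filled points passed an adjusted p of 0.05. Itgb7 sits near 0 in pre-pro-B and at 3.88 in pro-B cells, Itga6 lies on opposite sides of 0, and Itgav lies at about the same place in both.

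Markers of other cells moved with these contrasts. In pre-pro-B cells 4 of 5 primary granule markers rose with hCD4 (median change 3.83), where 8.78% of all genes did. The granule sums were up to 2.85 without and up to 33.2 with hCD4. Of the monocyte markers 5 of 8 rose (median change 1.66), although the monocyte sum was 261 to 295 without and 195 to 220 with hCD4. No classical or plasmacytoid dendritic marker passed there, where 17% of all genes changed. In pro-B cells the summed classical dendritic markers lay at 1.13 to 1.54 without hCD4 and 10.1 to 11.4 with it, against 96.2 to 99.1 in pre-pro-B cells, and 5 of 7 were well above background on both hCD4+ arrays. Xcr1 of that list was below background on both arrays of every group. In pro-B cells, where 11.6% of all genes rose with hCD4, 5 of the 7 plasmacytoid dendritic markers rose, with a median change of 2.68. Their sums, 96.3 to 97.2 and 135 to 138, were mostly Siglech, which lay at 6.24 and 6.31 without and 6.51 and 6.63 with hCD4. The sums without and with hCD4 were for the 8 monocyte markers 11.1 to 13.7 and 47.7 to 53.9, and for the 5 primary granule markers on the array 1.15 to 1.85 and 126 to 139. Of the granule genes Ms4a3 and Prtn3 were below background on both hCD4- pro-B arrays, and all 5 were above it on both hCD4+ arrays. The late neutrophil markers ran the other way, at 14.2 to 25.7 without and 0.69 to 1.19 with hCD4. The 10 pro-B and pre-B markers summed to 805 to 818 without and 544 to 554 with hCD4. Of these 10 only 1 fell with hCD4 and 0 rose, where 8.86% of all genes fell. Their median change was -0.58, and the brightest genes weigh most in the sum. The part of these cells in the integrin changes was not tested.

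**Figure D4:**
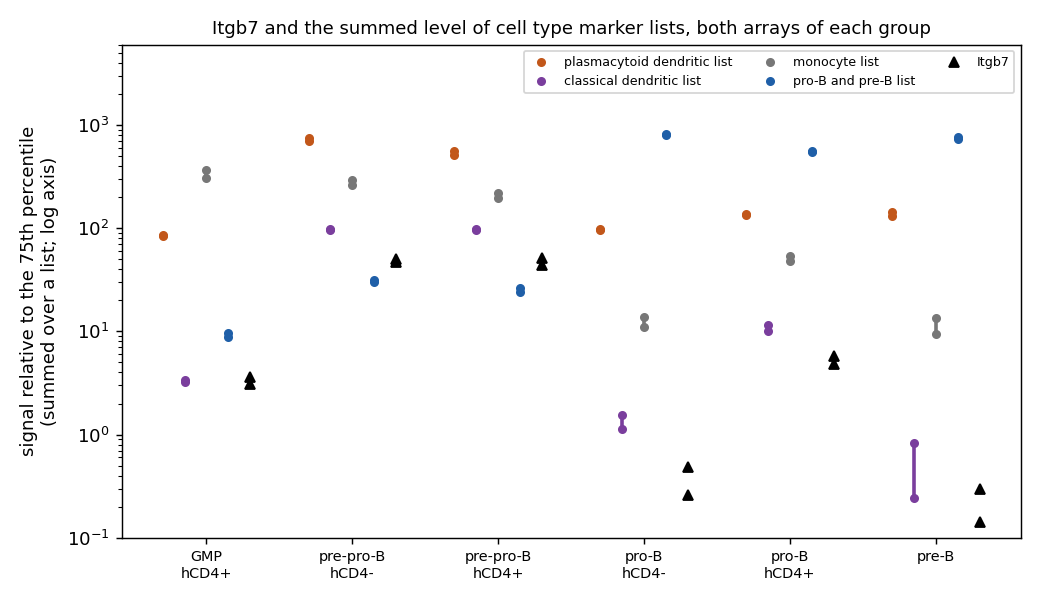
Signal relative to the 75th percentile of the array (log y axis) for Itgb7 (triangles) and for 4 marker lists summed over their genes (points), both arrays of each of the 6 groups (x axis). Itgb7 and the classical dendritic list are highest in both pre-pro-B groups and lie higher in hCD4+ than in hCD4- pro-B cells, where the list sums to 10.1 to 11.4 against 1.13 to 1.54.

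From hCD4- pro-B to pre-B cells 4 genes fell and 1 rose, where 41.1% of all genes changed. Itgb3 rose by 2.41 (SE 0.18, adjusted p = 6.03e-05). The falls were -1.92 for Itga5 (SE 0.42, adjusted p = 0.00767), -1.59 for Itgal (SE 0.15, adjusted p = 0.000181), -0.87 for Itgb1 (SE 0.13, adjusted p = 0.00132) and -0.66 for Itga4 (SE 0.11, adjusted p = 0.00249). The arrays did not overlap for 7 of 10, where they did not for 78.5% of all genes. Itgb7 differed by -0.80 (SE 0.37, adjusted p = 0.115), and by -1.33 (adjusted p = 0.0271) without pre-B replicate 1. Against hCD4+ pro-B cells, which share their slide, pre-B cells had 3 genes higher and 4 lower, where 42.9% of all genes changed (18.8% higher and 24% lower). For 8 of 10 the arrays did not overlap, where they did not for 76% of all genes. The falls were -4.69 for Itgb7 (SE 0.37, adjusted p = 3.57e-05), -2.23 for Itgal (SE 0.15), -2.08 for Itga5 (SE 0.42) and -1.14 for Itgb1 (SE 0.13). Itgb3 rose by 1.20 (SE 0.18, adjusted p = 0.000982), Itga6 by 1.10 (SE 0.19) and Itgav by 0.77 (SE 0.18). Only the Itgav call was lost without single arrays, at 0.57 without pre-B replicate 2 and 0.61 without hCD4+ pro-B replicate 2 (adjusted p = 0.073 and 0.0699).

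Between GMP and hCD4- pre-pro-B cells, also on a shared slide, 2 genes were higher in GMP and 7 lower, where 65.5% of all genes differed. The arrays did not overlap for 9 of 10, where they did not for 79.6% of all genes. Itga6 was 22.2-fold higher in GMP (4.47, SE 0.19, adjusted p = 3.33e-07) and Itga5 higher by 2.29 (SE 0.42, adjusted p = 0.00141). Itgb7 was lower, with a change of -3.86 (SE 0.37, adjusted p = 3.17e-05), as were Itgb2 (-3.19, SE 0.19), Itgb3 (-3.04, SE 0.18), Itgal (-1.45, SE 0.15), Itgav (-1.24, SE 0.18), Itgb1 (-0.53, SE 0.13) and Itga4 (-0.34, SE 0.11). Under array-median scaling the change of Itgb1 was -0.07 (adjusted p = 0.664) and that of Itga4 turned to 0.11 (adjusted p = 0.502). The Itga4 call was also lost without GMP replicate 1 (-0.32), GMP replicate 2 (-0.36) or hCD4- pre-pro-B replicate 2 (-0.32). Against hCD4+ pre-pro-B cells 2 genes were higher in GMP and 4 lower, where 54.1% of all genes differed (31.3% higher and 22.8% lower). The arrays did not overlap for 9 of 10, where they did not for 76.6% of all genes. The changes were 3.27 for Itga6 (SE 0.19), 1.92 for Itga5 (SE 0.42), -3.82 for Itgb7 (SE 0.37), -2.92 for Itgb3 (SE 0.18), -2.85 for Itgb2 (SE 0.19) and -0.96 for Itgal (SE 0.15).

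The probes of a gene did not always tell the same story. Itgam, a defining marker of myeloid cells, had its 3 probes differ most. The probe with the CA repeat (base 4431) lay between 2.97 and 5.02 on all arrays, its group means spread over 0.85, and no comparison passed. Its replicate 2 array was above its replicate 1 array in all 6 groups, by as much as 3.28 against 5.02 in hCD4- pre-pro-B cells. Of the 71 kept probes on the array with 10 or more CA or TG units, 31% had replicate 2 above replicate 1 in all 6 groups, against 4.61% of the 23272 kept probes with a value on every array. The median level of those 71 probes was 4.19, against -0.87 over those 23272.

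The other Itgam probes were dim. The probe at base 3410 lay at -3.57 to -2.86 on the 10 arrays of GMP, pre-pro-B and pro-B cells and at -2.36 and -1.99 in pre-B cells, above all of them. It was higher in pre-B than in hCD4- pro-B cells by 1.15 (SE 0.21, adjusted p = 0.00384 over all kept probes) and than in hCD4+ pro-B cells by 1.34 (SE 0.21, adjusted p = 0.00133). The probe at base 270 lay at -5.20 to -3.78, was not well above background on 4 of 12 arrays, and differed in pre-B from hCD4- pro-B cells by -0.04 (SE 0.28). For GMP against hCD4+ pre-pro-B cells it was higher by 0.93 (SE 0.28, adjusted p = 0.0204), where the probe at base 3410 gave -0.05 (SE 0.21). A direction for Itgam therefore depends on the probe.

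**Figure D5:**
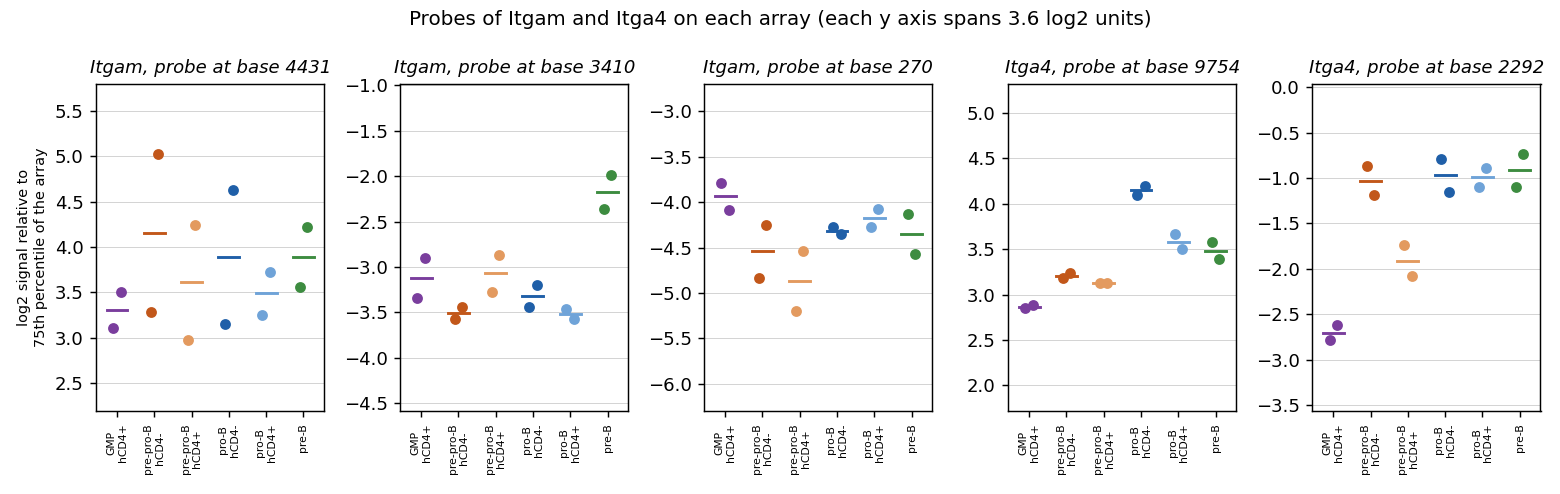
Levels at the 3 probes of Itgam and the 2 of Itga4 (log2 signal relative to the 75th percentile of the array, y axis, each panel spanning the same number of units) in the 6 groups (x axis); points are arrays and bars group means. The Itgam probe at base 4431 has its replicates far apart in 3 groups, the one at base 3410 is highest in pre-B cells, and the Itga4 probe at base 2292 sets the pre-pro-B groups farther apart than the one at base 9754.

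The junction-spanning Itga4 probe at base 2292 also departed from the brighter probe at base 9754. It lay at -0.87 and -1.19 in hCD4- and -1.73 and -2.08 in hCD4+ pre-pro-B cells, -0.79 and -1.15 in hCD4- and -1.10 and -0.89 in hCD4+ pro-B cells, -1.09 and -0.73 in pre-B cells and -2.79 and -2.62 in GMP. It was lower with hCD4 in pre-pro-B cells by -0.88 (SE 0.21, adjusted p = 0.0238), where the brighter probe gave -0.08. From hCD4- pre-pro-B to hCD4- pro-B cells it changed by 0.06 (SE 0.21), against the rise of 0.94 at the brighter probe, and with hCD4 it rose by 0.92 (SE 0.21, adjusted p = 0.00625). In GMP against hCD4- pre-pro-B cells it was lower by -1.68 (SE 0.21, adjusted p = 0.000144). Both probes were lowest in GMP.

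For Itgal the probes at bases 3543 and 3639 moved alike, with -2.84 (SE 0.22) and -2.96 from hCD4- pre-pro-B to hCD4- pro-B cells and -1.78 (SE 0.22) and -1.59 from there to pre-B cells. A further probe, at base 4428 of a cDNA clone record, changed by -2.11 (SE 0.21) in the former step and rose by 0.62 (SE 0.21, adjusted p = 0.0475) in the latter. In the step with hCD4 it gave -0.53 (SE 0.21, adjusted p = 0.0663), against -1.84 at base 3639, and for hCD4 in pre-pro-B cells it passed at -1.14 (SE 0.21, adjusted p = 0.01), against -0.49. The Itgb1 probe at base 1840 gave -1.96 (SE 0.32) from hCD4- pre-pro-B to hCD4- pro-B cells, in the direction of the probe at base 2631. In the step with hCD4 it gave -0.73 (SE 0.32, adjusted p = 0.088), which did not pass. From hCD4- pro-B to pre-B cells it gave -0.57 (SE 0.32, adjusted p = 0.195), which did not pass either. The Itgb3 probe at base 2618 was not well above background on any GMP or pro-B array. By that probe the level in hCD4- pro-B cells was at least 7.95-fold lower than in hCD4- pre-pro-B cells and that in GMP at least 6.89-fold lower. It gave 0.67 (SE 0.30, adjusted p = 0.167) for hCD4 in pro-B cells, between groups both below background. The Itgav probe at base 3885 gave -0.58 (SE 0.19) and -0.40 (SE 0.19) for hCD4 in pre-pro-B and pro-B cells, and neither passed, unlike the probe at base 6113.

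Of the 16 other integrin subunits on the list 8 passed the filter. Itgax and Itgad are alpha chains that pair with Itgb2. Itgax (CD11c), a dendritic cell marker, lay at 5.03 to 5.21 in pre-pro-B cells, 1.30 and 0.98 in hCD4+ pro-B, -2.89 and -4.06 in hCD4- pro-B and -3.45 and -3.58 in GMP. It rose with hCD4 in pro-B cells by 4.61 (SE 0.68, adjusted p = 0.00335) and differed by 0.15 (SE 0.68) in pre-pro-B cells. Itgad (CD11d) was at least 53.6-fold lower in hCD4- pro-B than in hCD4- pre-pro-B cells and at least 2.95-fold higher in hCD4+ than in hCD4- pro-B cells (adjusted p = 0.000432). Itgb5, another partner of Itgav, was highest in GMP at 0.67 and 1.05 and higher there than in hCD4- pre-pro-B cells by 4.56 (SE 0.29, adjusted p = 3.21e-06). Itga9, a relative of Itga4, was at least 4.04-fold higher in hCD4- pro-B than in hCD4- pre-pro-B cells (adjusted p = 0.0136). In the pro-B hCD4 contrast 3 of the 8 were higher (Itgax, Itgad and Itgb5) and 1 lower (Itgb4, -0.99, SE 0.23), where 11.6% and 8.86% of all genes were, and in the pre-pro-B contrast 0 were called by limma.

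Of the 35 genes on the list of integrin activation and linkage to the cytoskeleton 29 were tested. From hCD4- pre-pro-B to hCD4- pro-B cells 15 fell and 5 rose, where 26.9% of all genes fell and 32.7% rose, with a median of -0.56. The Src family kinase Fgr changed by -7.08 (SE 0.44) and the adaptor Fyb, which links T cell receptor signals to integrins, by -6.20 (SE 0.43), while the adaptor Skap1, a partner of Fyb, rose by 2.29 (SE 0.15). With hCD4 13 fell and 5 rose, where 21.1% of all genes fell and 33.1% rose. In the pro-B hCD4 contrast 6 of the 29 rose and 3 fell, where 11.6% and 8.86% of all genes did, with Fgr up by 2.74 (SE 0.44), Fyb by 1.79 (SE 0.43) and the GTPase Rap1a by 1.63 (SE 0.21, adjusted p = 0.00165). In the pre-pro-B contrast 2 rose and 3 fell, where 8.78% and 8.26% of all genes did, and the focal adhesion adaptor Pxn fell by 1.68 (SE 0.17, adjusted p = 0.000409).

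In pre-B cells against hCD4- pro-B cells 7 of these 29 rose and 8 fell, where 19.7% and 21.4% of all genes did. Skap1 fell by 2.90 (SE 0.15), and the focal adhesion kinase Ptk2 was at least 3.01-fold lower. In GMP against hCD4- pre-pro-B cells 16 of the 29 were lower and 4 higher, where 30.8% and 34.7% of all genes were. Fgr was at least 228-fold lower in GMP.

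Of 23 ligand and counter-receptor genes 16 were tested. From hCD4- pre-pro-B to hCD4- pro-B cells 5 rose and 4 fell, close to the 32.7% and 26.9% of all genes. Cdh1 (E-cadherin), the ligand of the pair of Itgb7 with Itgae, was at least 91.4-fold lower in hCD4- pro-B cells (adjusted p = 1.61e-06), and it was at least 3.54-fold higher in hCD4+ than in hCD4- pro-B cells (adjusted p = 0.00456). Itgae itself did not pass the filter. Icam2, a ligand of LFA-1, rose by 1.45 (SE 0.11) from hCD4- pre-pro-B to hCD4- pro-B cells. Fn1 (fibronectin), the ligand of VLA-4 and of the Itga5 pair, was at least 5.90-fold higher in hCD4+ than in hCD4- pre-pro-B cells (adjusted p = 0.00253) and at least 16.6-fold higher in GMP than in hCD4- pre-pro-B cells. Vcam1, the stromal ligand of VLA-4, was well above background in GMP only, at -1.78 and -2.46. In the pro-B hCD4 contrast 2 of the 16 rose and 3 fell, where 11.6% and 8.86% of all genes did.

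All 14 other homing and adhesion receptors on the list were tested. From hCD4- pre-pro-B to hCD4- pro-B cells 6 rose and 7 fell, where 32.7% and 26.9% of all genes did, with the tetraspanin Cd81, a partner of integrins, up by 8.26 (SE 0.32) and the P-selectin ligand Selplg down, at -3.19 (SE 0.15). The gut-homing chemokine receptor Ccr9 lay at 5.63 and 5.29 in hCD4- and 5.23 and 4.94 in hCD4+ pre-pro-B cells, 0.96 and 0.80 in hCD4+ pro-B, -1.25 and -2.35 in hCD4- pro-B, and -1.60 and -3.15 in pre-B cells. It rose with hCD4 in pro-B cells by 2.68 (SE 0.52, adjusted p = 0.00972), and its difference between the hCD4 contrasts was 3.06 (SE 0.73, adjusted p = 0.0218). Its group order was that of Itgb7 except for GMP, where it was not well above background. The follicle-homing receptor Cxcr5 moved against it, with -2.82 (SE 0.29, adjusted p = 0.000685) for hCD4 in pro-B cells, where 1 hCD4+ array was not well above background.

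For the 9 members whose group means spread over at least 1, the genes most alike in level over the 12 arrays were listed, among 8574 candidates. For Itgb7 they were Ccnd1, a cyclin of the G1 phase, and Ppfia4 (both r = 0.99), for Itgal Arhgef4 and Sirpa, the CD47 receptor of myeloid cells (r = 0.997 and 0.995), and for Itga6 Rapgef3, an exchange factor for Rap1 (r = 0.99), and B3gnt5 (r = 0.98). For Itgb3 they were Btla, an inhibitory receptor of lymphocytes, and Bloc1s2, for Itgb2 Dtx2 and Slc25a35, and for Itgb1 Eid1 and Plec, at r between 0.98 and 0.99. For Itga4 (Myl9, Bcl6b), Itga5 (Ash2l, Tnfsf8) and Itgav (Kat2b, Mll5) the closest genes lay at 0.90 to 0.97. The arrays share 6 groups, so such values mostly repeat the order of the group means.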

How the data were processed

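Total RNA of 12 sorted samples was measured on one-colour Agilent arrays. Per the file headers the deposited scanner files came from Feature Extraction 10.7.3.1, where processed signals are linear intensities with background already removed. The authors' deposited table of log2 values, with 1 decimal and equal column medians, served as an alternative only; its normalization is not given in the sources used here. Here log2 of the processed signal was taken and each array's 75th percentile over 43020 non-control features subtracted. Outlier spots (2469 values) were set to missing, and no spot was saturated. A probe was kept if some group had it well above background on each of its arrays, and the probe with the highest mean level stood for its gene. Single-probe results come from the same model over all kept probes.

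The main test was limma 3.58.1 in R 4.3.3 (lmFit and eBayes, two-sided), 1 model over 12 arrays with a mean per group, 6 residual and 2.15 prior degrees of freedom, and Benjamini-Hochberg adjustment within each of 10 comparisons. The test was tried on simulated data with independent noise and few genes changed, in 1 group only. These arrays differ from that, so the trial does not cover slide effects or technical replicates. "At least N-fold" sets a group that no array measured well above background to the dimmest probe still above it on its arrays, or to its own signal where higher. Members that passed are named in every comparison, while some comparisons leave out members that did not pass. From each gene list at most 4 genes per comparison are named among those that passed, and the 2 genes most correlated with a member. Marker, ligand and non-called values beyond that rule were chosen after they were seen. The members, lists and rules were chosen with earlier results of these data known. Alternatives covered scaling, background correction, filter, probe choice, array weights, the arrays fitted, the replicate number as a block and each array left out. Gene symbols matched RefSeq (GRCm38.p6) for all 10 members; exon and UTR annotation on mm9 was not used here. Figures were drawn with matplotlib.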

Additional observations from a re-analysis of the deposited data

Results flagged for a closer look

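The hCD4 contrast differed between pro-B and pre-pro-B cells for 5 integrin genes by limma's test of the difference itself (adjusted p under 0.05, where 23% of all genes tested differed). Pro-B minus pre-pro-B, the difference was 3.92 for Itgb7, where the contrast was -0.04 in pre-pro-B and 3.88 in pro-B cells. It was 1.32 for Itgb3 and 1.13 for Itgal. It was -1.93 for Itga6, whose contrasts of 1.20 and -0.73 both passed in opposite directions. The Itga6 call in pro-B cells was lost without any of the 4 arrays (-0.62 to -0.84). Its call in pre-pro-B cells was lost in a fit of those 4 arrays alone. The difference was 0.68 for Itgb1, whose contrasts of -0.41 and 0.27 did not pass alone, and its call was lost in 13 of 26 alternative settings.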

How the results depend on the processing

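Over 100 changes of members and 2550 alternative values, 2448 kept their direction and side of the threshold or stayed uncalled (69 of these with another sign), 70 lost their call, 29 gained one and 3 turned: Itga4 in GMP against hCD4- pre-pro-B cells under array-median scaling (0.11), and at the next brightest probe, chosen after seeing the data, Itga4 (0.0554) and Itgam (1.15) in pre-B against hCD4- pro-B cells. In the pre-pro-B hCD4 contrast the count of 2 integrin genes became 1 with array weights, 4 in the authors' table, 4 with the mean of probes, 4 with normexp and quantile normalization, 4 with probes above background on all 12 arrays and 0 by limma on only the arrays compared, where 3 had an unadjusted p under 0.05; all genes called then fell from 3162 to 485, and with array weights to 1405. Without single arrays it was 1 to 2 (hCD4- replicate 2 and either hCD4+ array gave 1), and all genes called ran from 1118 to 5317. With the next brightest probe the pro-B contrast gave 3 in place of 6 and the difference of contrasts 3 in place of 5; without single arrays the pro-B contrast gave 2 to 6. The replicate number as a block gave 4 in the pre-pro-B contrast (adding Itgal and Itgb1) and changed no other count. Deviations of same-numbered arrays correlated at -0.01 to 0.26 over 15 pairs of groups (median 0.15), 10 of them over 0.1. These values do not settle whether the numbers tie arrays together. The main model did not treat the numbers as pairing. Array-median scaling moved the median of all genes by up to -0.52 (difference of contrasts) and 0.45 (GMP against hCD4- pre-pro-B), and the share of higher calls from 51.5% to 83.4% in the pre-pro-B and from 56.8% to 31.1% in the pro-B contrast. Signal near background limits Itga5, the dim probes of Itgam and the Itgb3 probe at base 2618.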
